A study of Mus musculus with 6 samples.

Results

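The 10 genes described here restrain or report signalling through the mitogen-activated protein kinase (MAPK) cascade, and their RNA was measured in a mouse spermatogonial cell line after knockdown of Mettl3. They are the dual-specificity phosphatase genes Dusp1, Dusp4, Dusp5 and Dusp6, the Sprouty genes Spry1, Spry2 and Spry4, the Spred genes Spred1 and Spred2, and the ETS transcription factor gene Etv4. The members were taken by gene symbol from the mRNA table. All 10 were found among its 22298 genes, and all 10 passed the filter on low counts, which kept 13082 genes. The comparison asks whether RNA levels of these genes differ between cells with and without the siRNA against Mettl3, the catalytic subunit of the complex that writes N6-methyladenosine (m6A) into RNA.

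GC-1spg is an immortalised mouse spermatogonial line. Per the labels, both groups were GC-1spg cells in DMEM with 10% FBS, transfected with siRNA and harvested 48 h later. One group of 3 libraries (si-NC) received a control siRNA, although its treatment tag reads untreated, and the other group of 3 (si-METTL3) received the siRNA against METTL3. The labels print the same sequence for both siRNAs, so the control sequence is unknown, and no library of cells without siRNA was analysed here. Whether replicates were grown as separate cultures is not stated in the labels, and the p-values below reflect only how far these 6 samples scatter, and that scatter may be technical.

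Total counts in the mRNA table ran from 29679593 to 37698956 in si-NC and from 22146057 to 31469144 in si-METTL3. Mettl3, the targeted gene, was at 17.3, 19.2 and 18.6 CPM (counts scaled to library size) in si-NC and at 4.44, 5.97 and 5.52 CPM in si-METTL3. Of 13 spermatogonial markers, Nanos2, Sohlh1 and Sall4 had 0 counts in every library and Dazl had 1 count in all. Only 5 of the 13 passed the filter on low counts, so the germ cell label rests on few of them. Among these 5, Kit had 17, 14 and 53 counts for si-NC and 55, 36 and 53 for si-METTL3. Zbtb16 had 1, 2 and 35, against 18, 28 and 18. Both were lowest in si-NC replicates 1 and 2. Uchl1 was at 35.1 to 41.3 CPM, and Gfra1 was the only one called, higher in si-METTL3 (edgeR adjusted p = 0.0389). The sum of the 13 was 40.7 to 47.7 CPM in si-NC and 44.6 to 49.9 CPM in si-METTL3. Markers of other tissues were unequal between libraries. The sum of 12 lung epithelial genes, Sftpc among them, came to 3.56 CPM for si-NC replicate 1, 2.22 CPM for replicate 2 and 57.3 CPM for replicate 3, and to 60.5 to 89.5 CPM for si-METTL3. The sums over 5 red blood cell genes (0.448 to 11.8 CPM in si-NC, 12.4 to 19.1 CPM in si-METTL3), 9 macrophage and leukocyte genes (5.49 to 20.4 and 22.2 to 30.4 CPM) and 7 endothelial genes (14.7 to 23.1 and 23.8 to 28.8 CPM) were also lower in every si-NC library than in every si-METTL3 library. No gene of these 4 lists was at 0 in all libraries or was called. The sum over 7 Sertoli cell genes was 276 to 301 CPM in si-NC and 430 to 466 CPM in si-METTL3, with 2 genes higher and 1 lower and Fshr at 0 throughout. The part of these other cell types in the results below was not tested.

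MAPK pathways carry signals from growth factor receptors through RAS and a chain of kinases to the nucleus. When extracellular signal-regulated kinase (ERK) is active, it raises the transcription of genes whose products switch the pathway off again. Dual-specificity phosphatases remove phosphate from the MAP kinases themselves, Sprouty and Spred proteins act upstream at the level of RAS and RAF, and RNA levels of several of these genes are widely read as a gauge of ERK output. In the testis, ERK signalling downstream of growth factors such as FGF2 and GDNF is known to take part in the renewal of spermatogonia.

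Promoter sequence is shown first for the 2 members with the smallest p-values and for Dusp1, whose promoter holds the letters of a cyclic AMP response element. They come from RefSeq promoters of build GRCm38.p6, run 5′ to 3′ on the strand of the gene, and cover bases 250 to 51 before the annotated start. The Dusp5 stretch lies at chr19:53528895-53529094 on the plus strand, the Spry2 stretch at chr14:105896870-105897069 on the minus strand and the Dusp1 stretch at chr17:26508523-26508722 on the minus strand. Capitals mark matches to the serum response element core called the CArG box (Dusp5) and to TGACGTCA (Dusp1). The Spry2 stretch has no capitals.
Dusp5: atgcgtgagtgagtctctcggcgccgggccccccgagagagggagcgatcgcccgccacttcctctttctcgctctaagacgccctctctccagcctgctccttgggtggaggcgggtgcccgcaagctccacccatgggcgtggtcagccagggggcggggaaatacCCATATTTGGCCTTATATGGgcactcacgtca
Spry2: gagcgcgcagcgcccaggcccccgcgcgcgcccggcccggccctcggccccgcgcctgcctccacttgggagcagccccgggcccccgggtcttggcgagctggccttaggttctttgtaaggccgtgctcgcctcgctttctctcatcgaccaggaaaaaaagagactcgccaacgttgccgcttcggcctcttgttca
Dusp1: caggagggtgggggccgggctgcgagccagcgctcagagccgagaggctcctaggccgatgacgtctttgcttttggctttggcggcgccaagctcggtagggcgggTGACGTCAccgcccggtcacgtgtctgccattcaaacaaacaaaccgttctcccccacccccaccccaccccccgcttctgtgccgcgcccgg
RefSeq promoters were matched by symbol, and 250 bases before each start were searched on both strands for 7 of the 10 genes. Dusp4 and Etv4 had no entry, and Spry4 was left out of the search. Dusp5 held 2 CArG boxes next to each other, from 82 to 73 and from 72 to 63 bases before the start. A CArG box occurred in 1.47% of 32851 promoters of the same length. Dusp1 held TGACGTCA from 143 to 136 bases before the start, a motif found in 1.55% of promoters. The AP-1 motif TGANTCA (6.75% of promoters) and the ETS motif CCGGAAG (6.91%) were found in none of the 7. A match is a description of letters, not a site shown to be bound, and no match says only that these letters are not in the window.

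Of the 10 genes, 3 were lower in si-METTL3 at an adjusted p under 0.05 and none was higher (edgeR quasi-likelihood test over all 13082 genes with Benjamini-Hochberg adjustment). Over all tested genes 18.9% were called, 10.2% lower and 8.67% higher. The 3 were Dusp5, Spry2 and Dusp4, and they fell by 39.9%, 35.7% and 24.1%. The median log2 fold change of the 10 was -0.15, beside 0.03 over all tested genes. In 5 members, those 3 with Etv4 and Dusp1, every si-METTL3 library lay below every si-NC library, and in the other 5 the groups overlapped. Over all tested genes the groups did not overlap in 41.5%, with si-METTL3 below in 21.3% and above in 20.2%. The counts rest on single libraries: without si-NC replicate 2 the number of members called was 5, it was 2 without si-NC replicate 3 or without si-METTL3 replicate 1, and it was 1 (Spry2) without si-NC replicate 1 or either of si-METTL3 replicates 2 and 3. The calls over all tested genes moved as well, from 665 to 4917 in these fits, the most without si-NC replicate 2, against 2468 in the main fit. These libraries are bulk samples, in which fewer cells of a type and less RNA per cell cannot be told apart.

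**Figure D1:**
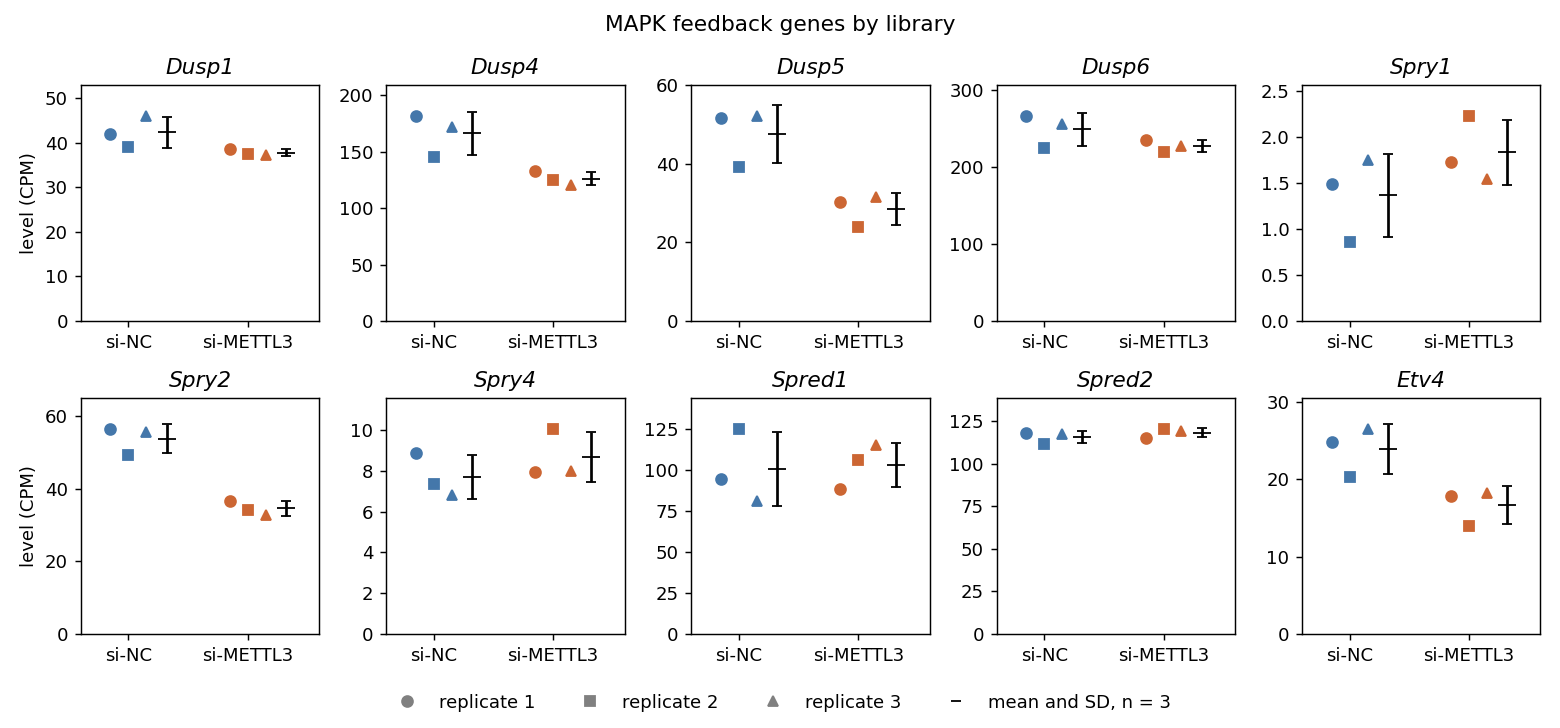
Level of each of the 10 genes in each library, in CPM (y axis, from 0), for si-NC and si-METTL3 (x axis). Symbols mark the replicate number, and the bar beside each group is the mean with its SD (n = 3). The Spry2 points separate, at 49.3 to 56.6 CPM against 32.9 to 36.8 CPM, whereas those of Spred2 overlap.

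DUSP5 is an inducible nuclear phosphatase that acts on ERK and also holds it in the nucleus. Dusp5 (ENSMUSG00000034765) is a chromosome 19 gene (53529109 to 53542431, plus strand, GRCm38). Its level was 51.6, 39.1 and 52.2 CPM in si-NC and 30.2, 24.0 and 31.6 CPM in si-METTL3. All 3 si-METTL3 libraries were below the lowest si-NC library, replicate 2. The mean fell from 47.6 ± 7.40 to 28.6 ± 4.06 CPM (SD, n = 3), a log2 fold change of -0.74 (SE 0.15, 95% interval -1.10 to -0.37, edgeR adjusted p = 0.0202). The call held in 3 of 6 fits that left out a library, and it was lost without si-NC replicate 1 (edgeR adjusted p = 0.0804), si-METTL3 replicate 2 (0.0770) or si-METTL3 replicate 3 (0.0575).

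An antisense transcript is annotated across the start of Dusp5. ENSMUST00000236686 runs from 53528609 to 53529655 of chromosome 19 (minus strand, GRCm38) and shares 547 bases with Dusp5 exons. In the lncRNA table its counts, not scaled to library size, were 31, 25 and 43 for si-NC, against 16, 12 and 14 for si-METTL3. These counts were lower in every si-METTL3 library, but the authors' deposited table gives an adjusted p of 1 for it. Dusp5 itself had 1810, 1179 and 1917 counts for si-NC, against 966, 538 and 779 for si-METTL3. The sources used here do not say whether counting used strand, so reads of the antisense transcript and of Dusp5 cannot be told apart where they overlap.

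DUSP4 is a second inducible nuclear phosphatase, with activity toward ERK, JNK and p38. Dusp4 (ENSMUSG00000031530, plus strand of chromosome 8, 34807297 to 34819894, GRCm38) was at 182, 145 and 171 CPM in si-NC and at 132, 125 and 121 CPM in si-METTL3. Here too si-NC replicate 2 was the lowest control, and it lay above all 3 si-METTL3 libraries. The mean fell from 166 ± 19.02 to 126 ± 5.95 CPM (SD, n = 3). This is a log2 fold change of -0.40 (SE 0.10, 95% interval -0.63 to -0.17, edgeR adjusted p = 0.0318). With each library left out in turn, the call was kept only without si-NC replicate 2, and in the other 5 fits the edgeR adjusted p was between 0.0587 and 0.124.

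DUSP1, the product of an immediate early gene, is a nuclear phosphatase known mainly for acting on p38 and JNK. Dusp1 was at 41.9, 38.9 and 46.0 CPM in si-NC and at 38.7, 37.4 and 37.2 CPM in si-METTL3. The groups did not overlap, but si-NC replicate 2 and si-METTL3 replicate 1 were close to each other. The log2 fold change was -0.16 (95% interval -0.37 to 0.05, edgeR adjusted p = 0.229), which did not pass, nor did it in any fit that left out a library.

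DUSP6 is the cytoplasmic phosphatase specific for ERK. Dusp6 was at 267, 225 and 255 CPM in si-NC and at 236, 220 and 227 CPM in si-METTL3. The groups overlapped, since si-NC replicate 2 lay below si-METTL3 replicates 1 and 3. The log2 fold change was -0.13 (95% interval -0.32 to 0.06, edgeR adjusted p = 0.287), and it passed only without si-NC replicate 2 (-0.20, edgeR adjusted p = 0.0315). The lncRNA table holds 2 further transcripts of the Dusp6 gene that are annotated as processed transcripts. The larger, ENSMUST00000220218, had 284, 159 and 572 counts for si-NC and 384, 292 and 234 for si-METTL3, not scaled to library size. Its counts spread widely within si-NC, and the groups overlapped.

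Among the Sprouty genes, Spry2 was the member with the smallest p-value. SPRY2 inhibits RAS to ERK signalling below receptor tyrosine kinases and also binds the ubiquitin ligase CBL. Spry2 (ENSMUSG00000022114) is a chromosome 14 gene (105891947 to 105896819, minus strand, GRCm38). Its level was 56.6, 49.3 and 55.7 CPM in si-NC and 36.8, 34.3 and 32.9 CPM in si-METTL3. The highest si-METTL3 library was well below the lowest si-NC library. The mean fell from 53.9 ± 4.01 to 34.6 ± 1.97 CPM (SD, n = 3). The log2 fold change was -0.64, with an SE of 0.09 and a 95% interval of -0.85 to -0.42 (edgeR adjusted p = 0.00605). Spry2 kept its call in all 6 fits that left out a library, with log2 fold changes from -0.70 to -0.60 and edgeR adjusted p of at most 0.0406.

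The other Sprouty genes were scarce in these cells. Spry1, which encodes another inhibitor of receptor tyrosine kinase signalling, had 52, 26 and 64 counts for si-NC and 55, 50 and 38 for si-METTL3. Scaled to library size, at 1.48, 0.86 and 1.74 CPM against 1.72, 2.23 and 1.54 CPM, si-METTL3 replicate 2 was the highest library and si-NC replicate 2 the lowest. Its log2 fold change was 0.41 with a 95% interval of -0.33 to 1.16 (edgeR adjusted p = 0.380), an interval that covers changes of either sign. Spry4, an ERK-responsive inhibitor, was at 8.89, 7.36 and 6.84 CPM in si-NC and at 7.95, 10.1 and 7.99 CPM in si-METTL3, and the groups overlapped (log2 fold change 0.17, 95% interval -0.20 to 0.54, edgeR adjusted p = 0.468).

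The Spred genes encode membrane-bound relatives of Sprouty that recruit neurofibromin to switch RAS off. Spred2 was the steadiest of the 10, at 118, 112 and 117 CPM in si-NC and at 115, 121 and 119 CPM in si-METTL3. The groups overlapped, and the 95% interval of its log2 fold change (0.03, -0.12 to 0.18) was narrower than that of any other member. Spred1 was at 94.7, 125 and 81.3 CPM in si-NC and at 88.7, 106 and 115 CPM in si-METTL3. Its spread within si-NC was larger than the difference between the groups (log2 fold change 0.04, 95% interval -0.36 to 0.44). Neither passed the test (edgeR adjusted p = 0.751 for Spred2 and 0.885 for Spred1).

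ETV4 is not an inhibitor but an ETS transcription factor induced by FGF and ERK signalling. Etv4 (ENSMUSG00000017724, minus strand of chromosome 11, 101769742 to 101785371, GRCm38) was at 24.9, 20.3 and 26.6 CPM in si-NC and at 17.9, 13.9 and 18.3 CPM in si-METTL3. The groups did not overlap. Its log2 fold change of -0.52 (SE 0.15, 95% interval -0.87 to -0.16) missed the threshold at an edgeR adjusted p of 0.0527. It passed without si-NC replicate 2 (edgeR adjusted p = 0.0166), with DESeq2 (-0.52, adjusted p = 0.0226) and with DESeq2 size factors in edgeR (edgeR adjusted p = 0.0463). The authors' deposited table gives it an adjusted p of 0.0203. Several noncoding transcripts of the Etv4 gene appear in the lncRNA table. The most abundant, ENSMUST00000129995, had 125, 74 and 113 counts for si-NC and 84, 33 and 63 for si-METTL3, not scaled to library size.

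**Figure D2:**
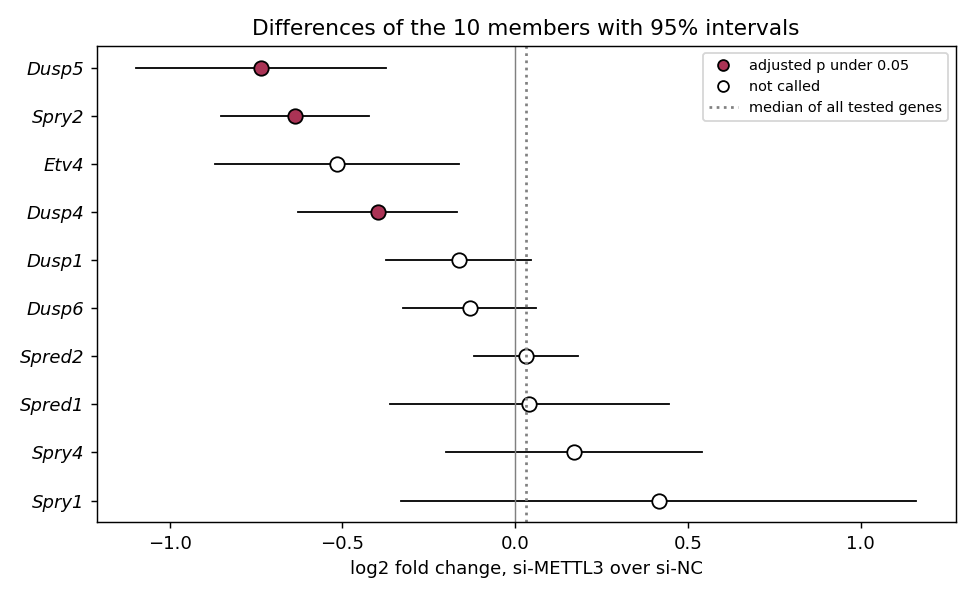
Log2 fold change of each member, si-METTL3 over si-NC (x axis), with its 95% interval from the edgeR fit of 3 against 3 libraries. Filled points have an adjusted p under 0.05. Dusp5, Spry2 and Dusp4 are filled, Etv4 lies between them unfilled at -0.52, and the Spry1 interval is the widest, from -0.33 to 1.16.

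One control library stood apart for most members. In si-NC replicate 2, 8 of the 10 members were at their lowest si-NC level, and Spred1 was at its highest. Over all tested genes, 52.7% had their lowest si-NC level in that library. Leaving it out moved the median log2 fold change of the members from -0.15 to -0.21, and Dusp4, Dusp5, Dusp6, Spry2 and Etv4 were then called. The same fit called 4917 genes over the whole table, against 2468 with all 6 libraries.

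**Figure D3:**
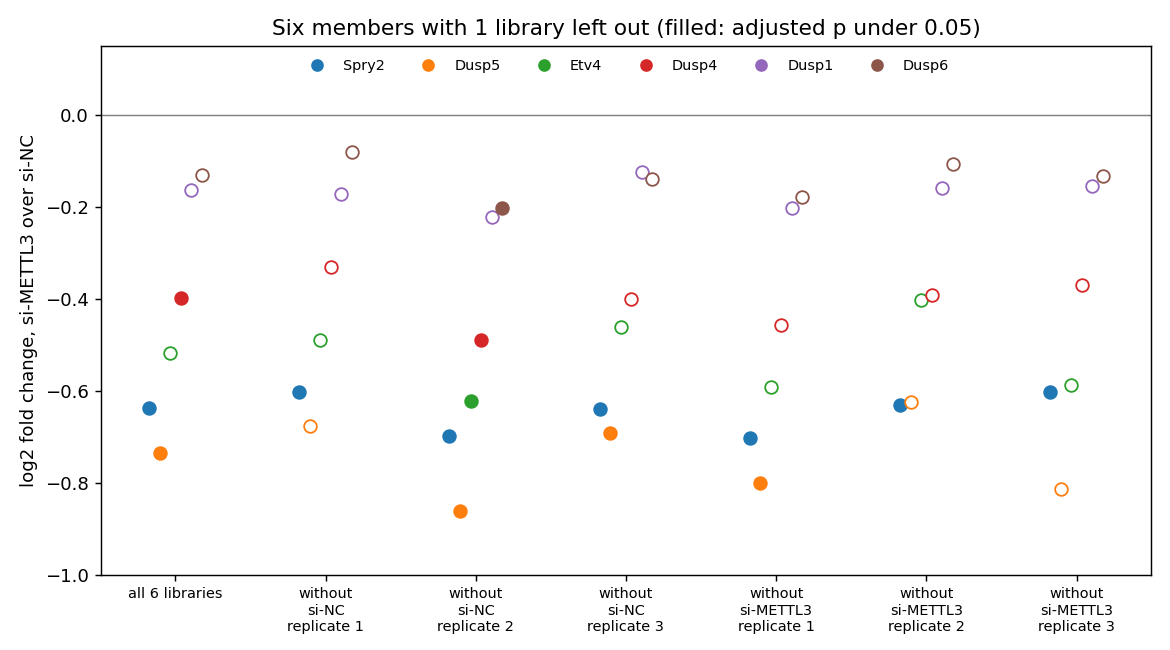
Log2 fold change (y axis) of the 6 members with negative values, over all 6 libraries and with each library left out in turn (x axis). Filled points have an edgeR adjusted p under 0.05. All points lie below 0, Spry2 is filled throughout, and Dusp4 is filled over all 6 libraries and without si-NC replicate 2.

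One more fit, chosen after the data were seen, used a single control library. Its control, si-NC replicate 3, held 57.3 CPM of lung markers, below the 60.5 to 89.5 CPM of si-METTL3. Set against the 3 si-METTL3 libraries, si-NC replicate 3 alone gave log2 fold changes of -0.69 for Spry2, -0.87 for Dusp5 and -0.45 for Dusp4. The spread in this fit comes from the 3 si-METTL3 libraries, so only the sizes are given here. The part of other cell types in these values was not tested. Without si-NC replicate 3 the values were -0.64, -0.69 and -0.40, with edgeR adjusted p of 0.0191, 0.0472 and 0.0700.

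Per unit of length, Dusp6 was the most abundant of the 10 and Spry1 the least. In FPKM, the authors' level scaled to transcript length and library size, the si-NC means were 83.8 ± 8.42 for Dusp6, 49.5 ± 5.18 for Dusp4, 27.6 ± 0.508 for Spred2 and 21.1 ± 1.33 for Spry2 (SD, n = 3). Neighbours in this order, and Spry2 and Dusp1 after it, did not overlap in si-NC, but Spred1 lay above Spry2 in replicate 2 (20.2 against 19.6 FPKM). Dusp1 (17.8 ± 1.21 FPKM), Spred1 (16.0 ± 3.76), Dusp5 (15.7 ± 2.26) and Etv4 (14.3 ± 1.79) followed, and neighbours among these 4 overlapped. Spry4 (1.32 ± 0.183 FPKM) and Spry1 (0.450 ± 0.144 FPKM) came last. In si-METTL3 the order of Dusp6, Dusp4 and Spred2 at the top, and of Spry4 and Spry1 at the bottom, was the same. Spry2, at 13.7 ± 0.968 FPKM, there ranked below Spred1 (16.6 ± 2.64) and Dusp1 (16.1 ± 0.333). All 3 of its si-METTL3 libraries lay below those of Dusp1, and they overlapped with those of Spred1.

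Most members have fewer exons than the median gene, and they differ in sequence features of the RNA. In the GENCODE M21 transcript with the longest coding sequence, the 3 Sprouty genes have 2 exons each and the 4 phosphatase genes 3 or 4, while Etv4 has 13 (median of 13014 tested genes 9). The core m6A motif GGACT occurred 7 times in the Spry2 transcript, or 3.35 times per kilobase, more than in 98.7% of tested genes. Dusp4 held it 6 times (2.19 per kilobase, more than in 91.2% of genes) and Dusp5 2 times (0.809 per kilobase, more than in 34.8%), beside a median of 1.05 per kilobase. Among members that were not called, Dusp6 (2.86 per kilobase), Spry1 (2.16), Dusp1 (2.01) and Spred2 (1.57) were above that median, and Spred1 (0.665), Spry4 (0.421) and Etv4 (0.418) were below it. The AU-rich pentamer ATTTA occurred 4 times in the 3′ UTR of Dusp1 (5.80 per kilobase, more than in 93.5% of genes). It occurred 2 times in that of Spry2 and 1 time in that of Dusp5, and Etv4 held none. The longer 3′ UTRs of Spred1 and Spry4 held 12 (2.77 per kilobase) and 7 (1.97). Spred2 held 4, Dusp4 and Spry1 2 each and Dusp6 1. A motif count does not show that the RNA is methylated, and no m6A measurement was analysed here.

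The siRNA printed in the labels was also compared with the members' 3′ UTRs, because short siRNA seeds can pair with other transcripts. The guide strand below is the reverse complement of the printed siRNA, with its seed (bases 2 to 8) in capitals, on the assumption that the printed strand is the passenger. The Dusp5 line is the stretch of its 3′ UTR around the seed match (bases 80 to 86 of the UTR), with the match GGACATT in capitals.
Guide strand: tAATGTCCcatacggtagc
Dusp5 3′ UTR: tttaaaacttgtGGACATTtcataccc
A seed match occurred once in the 3′ UTRs of Dusp5, Spred1 and Spred2 and in none of the other 7 members, and in 9.68% of tested genes. Of the 3 genes with a match, Dusp5 fell and the Spred genes were not called. Spry2 and Dusp4, which also fell, held no match. Whether seed pairing changed any of these RNAs was not tested. The labels print this sequence for both groups, and only the transcript with the longest coding sequence was searched for each gene.

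The remaining genes of the pathway were described from 8 lists that hold 133 genes, 124 of them tested. Of these, 22 were higher and 21 lower in si-METTL3, or 34.7% called beside 18.9% over all tested genes, and their median log2 fold change was 0.12, beside 0.03 over all tested genes. With each library corrected for its trend with gene length, 15 were higher and 23 lower. The number of these genes called was 64 without si-NC replicate 2 and from 9 to 24 without any 1 of the other 5 libraries, while the same fits called 4917 genes of the whole table without si-NC replicate 2 and 665 to 1624 without any 1 of the others.

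Of 19 genes outside the 10 members that ERK signalling is known to induce, 9 fell and 2 rose (57.9% called, median log2 fold change -0.34). Over all tested genes 18.9% were called, 10.2% lower and 8.67% higher. The list was chosen with earlier results of these data known. With 1 library left out, 4 to 12 of the 19 fell, while 665 to 4917 of all tested genes were called. The fewest (4) fell without si-NC replicate 1 or either of si-METTL3 replicates 2 and 3. Ccnd1, which encodes cyclin D1, was at 296, 241 and 285 CPM in si-NC and at 148, 135 and 146 CPM in si-METTL3 (log2 change -0.94, SE 0.09, edgeR adjusted p = 0.00176). Fosl1, which encodes the AP-1 subunit FRA1, was at 8.18, 7.63 and 10.3 CPM in si-NC and at 4.10, 3.07 and 3.04 CPM in si-METTL3 (edgeR adjusted p = 0.00554). In both genes the si-METTL3 libraries lay below all si-NC libraries, as they did for Myc (log2 fold change -0.67). These 3 genes kept their calls in all 6 fits that left out a library. Egr1, an immediate early transcription factor gene, was at 56.0, 44.1 and 50.7 CPM in si-NC and at 39.8, 40.5 and 40.1 CPM in si-METTL3 and did not pass (log2 fold change -0.33, edgeR adjusted p = 0.0646), although it passed without si-NC replicate 2 and after the length correction. Of 10 other tested ETS factor genes, Ets2 fell (-0.38, edgeR adjusted p = 0.0186) and none rose (10% called), and no gene of this list was called without si-NC replicate 1 or either of si-METTL3 replicates 2 and 3.

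Of 13 tested receptor tyrosine kinase genes, 7 rose and 2 fell (69.2% called, median log2 fold change 0.41), but only 3 rose after the length correction. Between 2 and 7 rose with 1 library left out, 2 without si-METTL3 replicate 2 and 3 without si-NC replicate 1 or either of si-METTL3 replicates 1 and 3. Fgfr1, a receptor for FGF ligands, was at 213, 179 and 210 CPM in si-NC and at 335, 355 and 311 CPM in si-METTL3 (log2 change 0.73, SE 0.09, edgeR adjusted p = 0.00394). The PDGF receptor gene Pdgfra rose by 0.78 on the log2 scale and Erbb3 by 0.82, and the calls of Fgfr1 and Pdgfra held in all 6 fits that left out a library (Erbb3 in 5, with edgeR adjusted p of at most 0.0560). Erbb3 lost its call under the length correction (0.58, edgeR adjusted p = 0.0759). Of 24 adaptor, RAS, RAF, MEK and ERK genes, 3 rose and 1 fell, a share of 16.7% that is near the 18.9% over all tested genes. Mapk3, which encodes ERK1 itself, was at 62.3, 58.9 and 71.7 CPM in si-NC and at 126, 118 and 113 CPM in si-METTL3 (log2 change 0.89, SE 0.09, edgeR adjusted p = 0.00206; 6 of 6 fits). The phosphatase gene Ptpn11 fell (-0.41, or -0.63 with the length correction), a call that held in 3 of the 6 fits.

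Other negative regulators did not share 1 direction. Of 11 further phosphatase genes, Dusp16 rose (0.34) and Dusp3 (-0.30) and Dusp14 (-0.37) fell, 27.3% called in all, each with a call that held in 1 of 6 fits, the one without si-NC replicate 2. With the length correction Dusp16 was at 0.16 (edgeR adjusted p = 0.150) and Dusp14 at -0.26 (0.102), and in limma on log2(FPKM + 1) Dusp3 was at -0.19 (limma adjusted p = 0.108), so none of the 3 calls is firm. Of 15 other receptor and RAS feedback genes, 3 rose and 2 fell (33.3% called). Socs1, an inhibitor of cytokine signalling, fell by 1.55 on the log2 scale (6 of 6 fits) and its relative Socs3 rose by 0.57 (4 of 6 fits). Socs1 was scarce, at 117, 113 and 131 counts for si-NC and 52, 22 and 24 for si-METTL3. Cblb, which encodes a ubiquitin ligase of receptor tyrosine kinases, rose by 0.52 (3 of 6 fits), and by 0.35 with the length correction. Of 16 tested growth factor ligand genes, Btc rose (1.04, 2 of 6 fits) and Nrg1 (-0.48, 2 of 6 fits) and Vegfa (-0.24, 1 of 6 fits) fell, a share of 18.75% that is near the 18.9% over all tested genes. Nrg1 was at -0.45 with the length correction (edgeR adjusted p = 0.0515) and at -0.37 in limma on log2(FPKM + 1) (limma adjusted p = 0.0666). The Vegfa call was lost in 12 of 14 alternatives, its value in limma on log2(FPKM + 1) was -0.05 (limma adjusted p = 0.669), and the authors' deposited table gives -0.05 with an adjusted p of 0.0542. Of 16 tested JNK and p38 pathway genes, 5 rose and 2 fell (43.75% called, median 0.39), among them Map3k5 (0.68) and Map3k1 (0.53), which rose, and Jun (-0.38), which fell. Map3k5 lost its call under the length correction (0.49, edgeR adjusted p = 0.0642) and Map3k1 in limma on log2(FPKM + 1) (0.41, limma adjusted p = 0.0653). From 0 to 9 genes of this list rose with 1 library left out, 9 without si-NC replicate 2 and at most 1 without any other library.

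**Figure D4:**
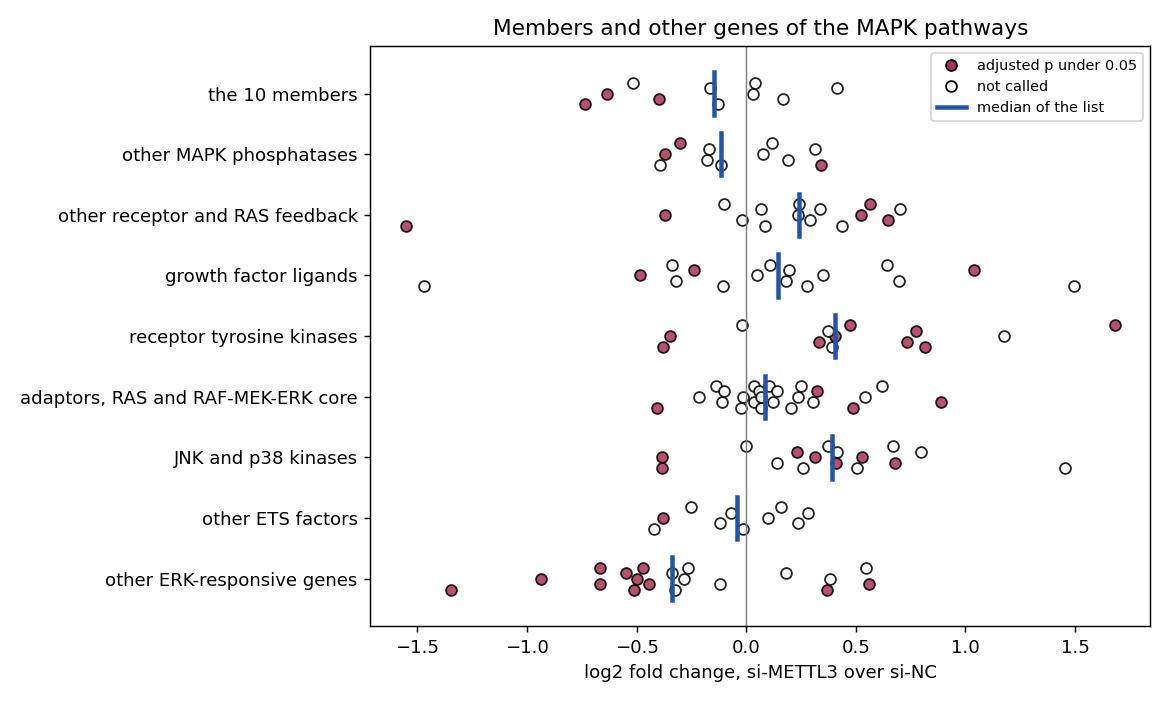
Log2 fold change, si-METTL3 over si-NC (x axis), of the 10 members and of the tested genes of 8 further lists (rows). Each point is a gene, filled where the edgeR adjusted p is under 0.05, and the blue bar is the list's median. The medians run from -0.34 for ERK-responsive genes to 0.41 for receptor tyrosine kinases.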

How the data were processed

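RNA of 6 GC-1spg libraries was sequenced by the submitters. The submitters' processing notes name fastp, Bowtie2, StringTie and RSEM with the mouse build mm9, without versions or roles. Per the file headers, the authors deposited counts and FPKM values per library for mRNA genes and for lncRNA transcripts. They also deposited a log2 fold change, p-values and adjusted p-values whose test the sources used here do not name. Nor do they say how reads shared by genes were divided.

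Counts of the mRNA table were tested here with edgeR 4.0.16 in R 4.3.3 (TMM, filterByExpr, quasi-likelihood fit of group alone, Benjamini-Hochberg over all tested genes, threshold 0.05). CPM were scaled to effective library sizes, except marker sums, which used the table totals. SE were taken as |log2 fold change|/sqrt(F), and 95% intervals use the fit's total degrees of freedom. Alternatives were DESeq2 1.42.0, DESeq2 size factors, no filter beyond 1 count, limma 3.58.1 on log2(FPKM + 1) and log2(FPKM + 0.1) for genes with a mean FPKM of at least 1, a length correction per library, the replicate number as a block and each library left out. One more, si-NC replicate 3 alone against si-METTL3, was added after the data were seen. The fit was tested on simulated data. No lncRNA transcript was tested here, and the transcripts described were chosen as those at the members' genes.

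Promoters came from RefSeq (GRCm38.p6) and transcripts from GENCODE M21 (GRCm38). No coordinate was converted between builds. Figures were drawn with matplotlib 3.10.9. The members and lists were chosen with earlier results of these data known. Besides the members, Mettl3, Fosl1 and Egr1, at most 3 called genes with the smallest p were named per list. One gene that this rule names is not reported here.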

Additional observations from a re-analysis of the deposited data

How the results depend on the processing

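Spry2 kept its direction and its call under all 14 alternatives, with log2 fold changes from -0.70 to -0.58. No named gene with a call changed sign under any alternative. The alternatives reuse the libraries that gave the calls, so a kept sign is not separate evidence. Dusp5 lost its call in 3 fits, all of which left out a library. Dusp4 lost it in 6, of which 5 left out a library and 1 was the replicate block (-0.39, edgeR adjusted p = 0.0549). Etv4 gained a call in 4 (DESeq2, DESeq2 size factors, the replicate block and without si-NC replicate 2), and Dusp6 in 1 (without si-NC replicate 2). With 1 library left out, the number of members called ran from 1 to 5, that of all tested genes from 665 to 4917 and that of pathway genes from 9 to 64. With the replicate block, 3 members (Spry2, Dusp5 and Etv4), 1273 genes and 18 pathway genes were called. No pairing by number was seen: deviations from the group mean correlated between libraries of the same number at -0.31 to 0.20. Most libraries correlated best with a library of another number, the highest value being 0.34 for si-NC replicate 3 and si-METTL3 replicate 1. Such correlations cannot exclude that libraries of the same number shared a culture. The causes were not tested. Spry1 and Socs1 had a mean FPKM under 1 and could not be tested with limma. In Spry1, at 26 to 64 counts per library, the interval leaves a change of either sign possible at this depth.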
